A study of Mus musculus with 6 samples.

Results

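Matrix metalloproteinases (MMPs) are zinc-dependent enzymes that cleave collagens, gelatin, laminins, proteoglycans and other proteins of the pericellular matrix. Tissue inhibitors of metalloproteinases (TIMPs) are small secreted proteins that block their active site, and the same family member can also help to activate an MMP, as TIMP2 does for pro-MMP2 at the cell surface. In adipose tissue, these enzymes take part in the remodelling of a fibroblast-like matrix into the basement membrane that surrounds each adipocyte. The 10 genes described here are the MMP genes Mmp2, Mmp3, Mmp9, Mmp10, Mmp13, Mmp14 and Mmp19 and the inhibitor genes Timp1, Timp2 and Timp3, taken by symbol from the 26264 genes listed in each count file. All 10 were present in all 6 files. They were chosen by their FGF8 against untreated fold changes in these same libraries, Mmp3 in particular for its day 3 value, so these differences are given as a description and without a test.

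The libraries are bulk RNA sequencing of immortalized brown preadipocytes, a line made with SV40 large T antigen from the stromal vascular fraction of interscapular brown adipose tissue (iBAT) of Bl6N wild-type mice. Cells were left untreated or received 5.5 nM FGF8, a paracrine fibroblast growth factor, for 48 h. They were harvested directly (day 0), at day 3 (2 days of induction medium and 1 day of differentiation medium) or at day 9 (2 and 7 days, labelled D7), with 1 library for each of the 6 conditions. Whether the line is 1 clone is not stated in the sources used here, and all 6 conditions carry the SV40 transgene. The libraries held between 16403254 and 38551551 counts. With 1 library per condition no difference between FGF8 and untreated cells has a replicate check, and the 95% intervals below cover counting error only. Adipoq, an adipokine of differentiated adipocytes, had at most 1 count at day 0 and between 16715 and 47351 counts at days 3 and 9. Of the 7 macrophage markers, Adgre1 had 0 counts in all 6 libraries, Ptprc at most 1 and Itgam at most 3. Cd68 had 27 to 141 counts per library, Csf1r 4 to 61, Lyz2 1 to 22 and Mrc1 0 to 13.

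Mmp13, Mmp3 and Mmp10 belong to a run of 10 MMP genes on chromosome 9 (GRCm39, 7272514 to 7699587), with Mmp13 at 7272514 to 7283331, Mmp3 at 7445822 to 7455975 and Mmp10 at 7502353 to 7510241. Mmp2 lies on chromosome 8 (93553902 to 93580049), Mmp9 on chromosome 2 (164780439 to 164797771), Mmp14 on chromosome 14 (54668878 to 54682821) and Mmp19 on chromosome 10 (128626773 to 128636695). Timp1 lies on chromosome X (20736316 to 20740976), Timp2 on chromosome 11 (118191887 to 118246566, minus strand) and Timp3 on chromosome 10 (86136236 to 86185371). The 250 bases upstream of the annotated transcription start were searched on both strands for an AP-1 site (TGANTCA), an ETS or PEA3 site (AGGAAG), the core promoter box TATAAA and the palindromic glucocorticoid response element. AP-1 and ETS factors are known targets of growth factor signaling, and glucocorticoid is part of the induction medium as dexamethasone. The AP-1 letters were found upstream of 5 of the 10 members, which were Mmp3, Mmp9, Mmp10, Mmp13 and Mmp19, against 5.97% of 19091 protein-coding genes in the table. The ETS letters were upstream of 6 of 10 (Mmp3, Mmp13, Mmp14, Timp1, Timp2 and Timp3) against 29.1% of all genes, the TATA letters upstream of 3 of 10 (Mmp3, Mmp10 and Mmp13) against 10.6%, and the glucocorticoid element upstream of none of the 10 against 0.299%. The 3 windows on chromosome 9 had a GC content between 37.6% and 40.4%, and those of Timp2 and Timp3 61.2%, where the median of all genes was 54.4%.

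Of the sequences below, Mmp3, Mmp13 and Mmp9 are shown because they share the AP-1 letters while their transcripts differed in direction at day 0. The higher value was that of Mmp13, from only 19 against 4 counts. Mmp2 and Mmp14 are shown because both lack these letters and were lower together at days 3 and 9. Mmp3, with the letters, and Timp1, Timp2 and Timp3, without them, were lower on those days too. A link between letters and direction was not tested. Capitals mark the searched motifs, and each line reads 5′ to 3′ up to the base before the start.
Mmp3 (chr9:7445572-7445821, GRCm39, + strand): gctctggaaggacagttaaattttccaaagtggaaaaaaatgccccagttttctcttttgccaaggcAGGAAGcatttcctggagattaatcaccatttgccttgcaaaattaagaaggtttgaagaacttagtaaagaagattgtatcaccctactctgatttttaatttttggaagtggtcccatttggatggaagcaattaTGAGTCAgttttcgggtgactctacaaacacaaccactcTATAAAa
Mmp13 (chr9:7272264-7272513, GRCm39, + strand): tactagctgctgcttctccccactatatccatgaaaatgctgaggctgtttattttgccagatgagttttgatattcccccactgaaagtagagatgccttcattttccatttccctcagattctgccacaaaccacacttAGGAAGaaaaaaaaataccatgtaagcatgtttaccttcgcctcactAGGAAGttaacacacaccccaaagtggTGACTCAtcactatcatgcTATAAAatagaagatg
Mmp9 (chr2:164789889-164790138, GRCm39, + strand): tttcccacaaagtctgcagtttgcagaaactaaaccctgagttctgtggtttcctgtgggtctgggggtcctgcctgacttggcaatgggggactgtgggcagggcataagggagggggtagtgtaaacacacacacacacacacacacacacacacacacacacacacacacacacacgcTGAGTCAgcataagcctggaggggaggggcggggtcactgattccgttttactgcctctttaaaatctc
Mmp2 (chr8:93553652-93553901, GRCm39, + strand): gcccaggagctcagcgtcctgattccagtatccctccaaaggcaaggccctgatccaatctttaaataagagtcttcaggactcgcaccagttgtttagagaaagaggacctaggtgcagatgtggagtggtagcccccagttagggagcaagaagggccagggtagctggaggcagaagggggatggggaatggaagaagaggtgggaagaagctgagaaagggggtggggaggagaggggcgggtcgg
Mmp14 (chr14:54668628-54668877, GRCm39, + strand): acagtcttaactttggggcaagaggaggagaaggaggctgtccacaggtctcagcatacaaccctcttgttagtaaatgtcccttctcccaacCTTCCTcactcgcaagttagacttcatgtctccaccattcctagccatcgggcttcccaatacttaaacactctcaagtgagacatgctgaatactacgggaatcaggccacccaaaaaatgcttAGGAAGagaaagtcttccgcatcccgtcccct
In Mmp3 the AP-1 letters begin 46 bases before the start, in Mmp13 35 bases and in Mmp9 69 bases. These matches describe letters in the window and do not show that a factor bound there.

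The first question was how the 10 transcripts compare with each other in cells that saw no FGF8. Normalized counts (counts divided by the DESeq2 size factor of the library) were divided by the exon length of the gene in kb, since only per length can different genes be compared. In untreated preadipocytes, Timp2 was the most abundant member at 7529 normalized counts per kb. It was followed by the gelatinase gene Mmp2 at 3937, the membrane-bound Mmp14 at 2736, Timp3 at 1922 and Timp1 at 1766. The stromelysin gene Mmp3 had 927.3 per kb, Mmp19 666.2 and the second gelatinase, Mmp9, 119.4. The collagenase gene Mmp13 and the second stromelysin gene, Mmp10, were close to absent at 2.20 and 0.853 per kb, from 4 counts and 1 count. With 1 library there is no spread to show which neighbours in this order differ. The order also depended on the length used, since per kb of the longest transcript Mmp14 (4890.2) stood above Mmp2 (4317), with Timp3 at 3263 and Timp1 at 1880.4. By day 9 the order in untreated cells was Mmp2 (5075 per kb), Timp1 (3059), Timp2 (1563), Mmp14 (1453), Mmp3 (1276), Mmp19 (662.9) and Timp3 (163.8), so that Timp1 stood above Timp2 and Mmp3 above Timp3. Per kb of the longest transcript Mmp14 (2596) stood above Timp2 (1823) at day 9.

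**Figure D1:**
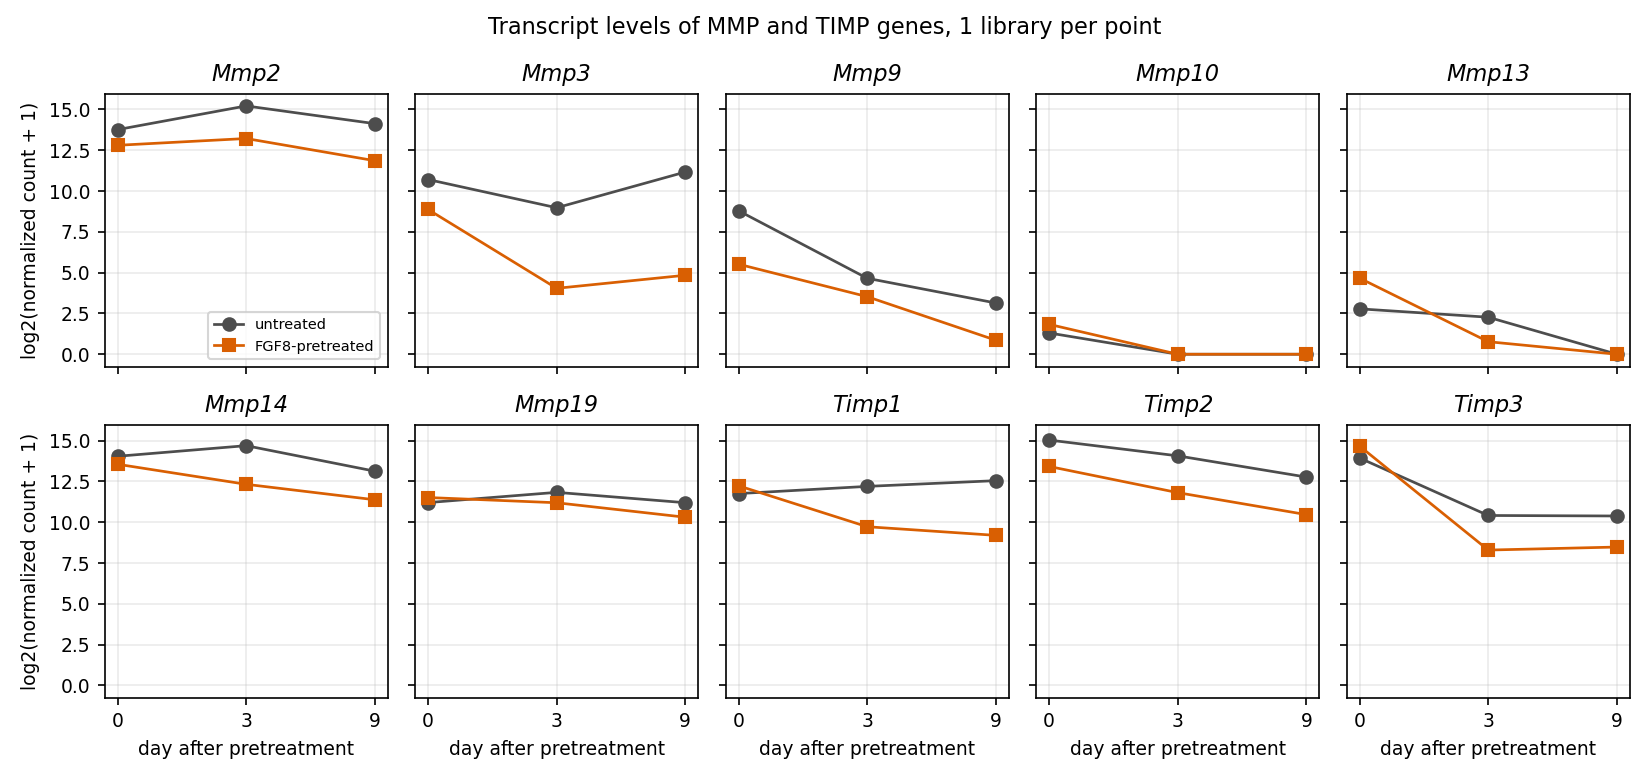
Normalized counts of the 10 members on a log2(value + 1) axis at days 0, 3 and 9 (days evenly spaced), untreated in grey circles and FGF8-pretreated in orange squares, 1 library per point. At days 3 and 9 the orange points lie below the grey ones in every panel in which either library held more than 3 counts, while at day 0 those of Mmp19, Timp1, Timp3, Mmp13 and Mmp10 (2 counts against 1) lie above.

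Mmp3, which encodes stromelysin-1, an enzyme that cleaves proteoglycans, fibronectin and laminin and activates other pro-MMPs, had the widest gap between the treatments at days 3 and 9, while at day 0 that of Mmp9 was wider. Its normalized counts in untreated cells were 1670.1 on day 0, then 502.7 and finally 2298. Pretreated cells had 467.3, 15.4 and 27.6, from 365, 22 and 34 counts. Every FGF8 library lay below every untreated library of this gene. Relative to the untreated library of the same day, Mmp3 was 3.57-fold lower at day 0 (log2 fold change -1.84, 95% interval -2.01 to -1.67), 32.6-fold lower at day 3 (-4.94, -5.72 to -4.41) and 83.1-fold lower at day 9 (-6.33, -6.91 to -5.89). At day 3 its fold change was number 3 from the lowest of 12892 genes with a pair mean of 20 normalized counts or more. Among the 11014 whose pair mean reached 100 it was the lowest. At day 9 it was number 2 of 13070 and at day 0 number 620 of 12657, both at a pair mean of 20 or more. The day 3 value is the one the gene was chosen for. In untreated cells the transcript dipped at day 3 and was 4.57-fold higher at day 9 than at day 3, whereas in FGF8-pretreated cells it was 1.79-fold higher (log2 interval 0.024 to 1.68) and stayed 16.9-fold below its own day 0 level.

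Mmp9, a gelatinase of collagen IV and a well-known product of leukocytes, was a gene of the undifferentiated cells. Over the 3 days it had 442.1, 24.2 and 7.81 normalized counts in untreated cells and 44.8, 10.5 and 0.813 in FGF8-pretreated cells. At day 0 it was 9.87-fold lower after FGF8 (log2 fold change -3.27, 95% interval -3.85 to -2.79), the largest difference among the members on that day that passed the filter. At days 3 and 9 both libraries held at most 19 counts and the pair fell under the filter of 20 normalized counts. The ratio at day 3 was 2.30-fold lower (log2 interval -2.28 to -0.15), and 1 count in the FGF8 library of day 9 gave a ratio of 9.60-fold lower with a log2 interval from -8.69 to -0.48.

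Mmp13 and Mmp10 lie in the same run on chromosome 9 as Mmp3, though not next to it. Mmp12 and Mmp1b lie between Mmp13 and Mmp3, and Mmp1a between Mmp3 and Mmp10. Mmp13, an interstitial collagenase, had 4 counts in untreated and 19 counts in FGF8-treated preadipocytes, a ratio of 4.14-fold higher with a log2 interval of 0.46 to 4.06. At days 3 and 9 it had at most 3 counts in any library. Mmp10 had at most 2 counts in any library, so that no difference was detectable at this depth. Mmp12, a macrophage elastase gene of the same run, had 0 counts in untreated and 7 in FGF8-treated preadipocytes, at least 2.03-fold higher. Mmp1b and Mmp1a had 3 counts and 1 count there and 0 in every other library. Further along the run Mmp27, like Mmp3, was lower after FGF8 on each day. It had 83.7, 290.2 and 366.3 normalized counts in untreated cells and 3.84, 51.9 and 43.1 after FGF8, and was 21.8-fold, 5.59-fold and 8.50-fold lower on days 0, 3 and 9, with 3 counts behind the first ratio and a log2 interval from -6.77 to -2.83. Mmp12, Mmp1a, Mmp1b and Mmp27 were singled out after their values were seen. Mmp7 and Mmp20, at the end of the run, had 0 counts throughout, which allows up to 3 counts per library. The sequences of these genes resemble each other, and how reads with several matches were counted is not stated in the sources used here.

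Mmp14, Mmp2 and Timp2 work together. MMP14 (MT1-MMP) sits in the plasma membrane, binds TIMP2, and this pair captures pro-MMP2 for activation by a second MMP14 molecule. Mmp14 had 16871, 26483 and 8957 normalized counts in untreated cells on days 0, 3 and 9, and 12024, 5128 and 2659 after FGF8. Mmp2 had 13909, 38088 and 17930 in untreated cells and 7150.0, 9539 and 3716 after FGF8. For Timp2 the values were 33602, 17183 and 6974 in untreated cells and 10954, 3599.5 and 1415 after FGF8. On every day all 3 transcripts were lower in the FGF8 library.

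At day 0 the 3 genes differed in the size of this gap, with Timp2 3.07-fold lower (log2 fold change -1.62, 95% interval -1.65 to -1.58), Mmp2 1.95-fold lower (-0.96, -1.01 to -0.91) and Mmp14 1.40-fold lower (-0.49, -0.53 to -0.45). At day 3 they were lower by 4.77-fold for Timp2, 3.99-fold for Mmp2 and 5.16-fold for Mmp14, and at day 9 by 4.93-fold, 4.83-fold and 3.37-fold. Mmp2 lay just inside 2-fold at day 0 and well past it later. In untreated cells Mmp2 was 2.74-fold and Mmp14 1.57-fold higher at day 3 than at day 0. In FGF8-pretreated cells Mmp2 was 1.33-fold higher and Mmp14 2.34-fold lower over the same interval. An annotated gene on the strand of Timp2, Cep295nl, overlaps its exons, and had 7 to 122 counts per library against 1740 or more for Timp2.

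Mmp19, which encodes a secreted enzyme of basement membrane turnover, differed least between the treatments. It had 2359, 3644 and 2347 normalized counts in untreated cells and 2925, 2342 and 1267 after FGF8. The log2 fold change was 0.31 (95% interval 0.22 to 0.40) at day 0, -0.64 (-0.71 to -0.57) at day 3 and -0.89 (-0.98 to -0.80) at day 9, and none of these reached 2-fold. Its exons overlap those of Tmem198b on the other strand, which had 319 to 591 counts per library, and the strand setting of the counting is not stated in the sources used here. Mmp19 made up 7.94%, 6.28% and 7.83% of the summed MMP level per kb in untreated cells and 16.3%, 15.7% and 19.3% in FGF8-pretreated cells.

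Timp1 and Timp3 were higher in the FGF8 library at day 0 and lower afterwards. Timp1, a soluble inhibitor with a broad range and growth factor-like activity, had 3456, 4695 and 5987 normalized counts in untreated cells and 4812, 845.1 and 585.3 after FGF8. The untreated values lay higher at each later day, the FGF8 values lower. Its log2 fold change went from 0.48 (95% interval 0.40 to 0.55) at day 0 to -2.47 (-2.57 to -2.38) at day 3 and -3.35 (-3.47 to -3.24) at day 9, where it was 10.2-fold lower. Timp3, the inhibitor that binds to the matrix and also blocks ADAM17, had 15658, 1363 and 1334 normalized counts in untreated cells and 25972, 313.1 and 356.1 after FGF8. Its log2 fold changes were 0.73 (0.70 to 0.76), -2.12 (-2.28 to -1.96) and -1.90 (-2.06 to -1.76), or 1.66-fold higher, 4.35-fold lower and 3.75-fold lower. Timp1 lies in an intron of Syn1, which had 18 to 47 counts per library, and Timp3 overlaps Syn3, which had 2 to 11, both on the opposite strand.

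**Figure D2:**
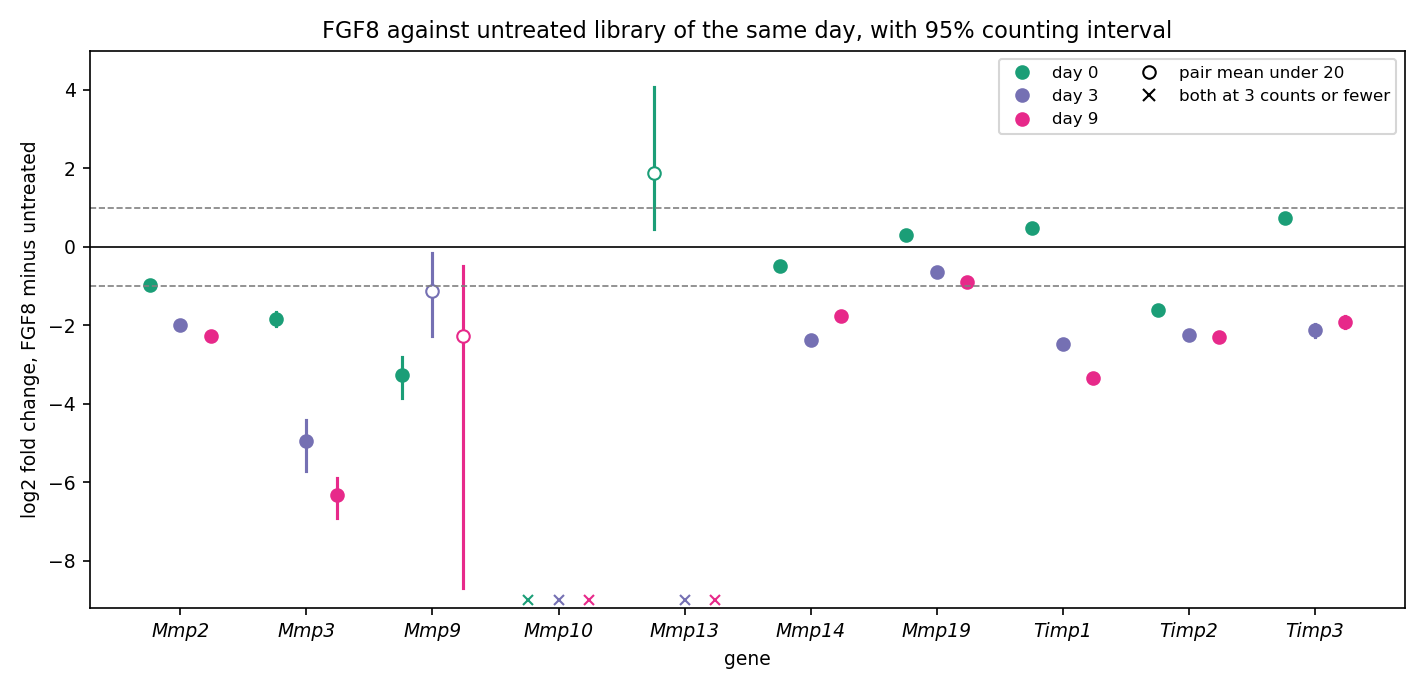
Log2 fold change of FGF8 against the untreated library of the same day, with the 95% counting interval as a line (hidden behind the point for abundant genes), in green for day 0, violet for day 3 and pink for day 9. Open points mark pairs with a mean under 20 normalized counts, crosses at the bottom mark pairs with no more than 3 counts in either library, and dashed lines mark 2-fold. Mmp3 reaches -6.33 at day 9, and Mmp19, Timp1 and Timp3 change sides after day 0.

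Counted over the list, 3 of the 10 members (Mmp3, Mmp9 and Timp2) were 2-fold or more below the untreated library at day 0 with a pair mean of 20 normalized counts or above, as were 10.8% of all genes past this filter. Another 5 members passed the filter and lay within 2-fold, and none was at least 2-fold higher (7.27% of all genes). At day 3 and at day 9, Mmp2, Mmp3, Mmp14, Timp1, Timp2 and Timp3 were at least 2-fold lower, 6 of 10 on each day, against 12.1% and 8.74% of all genes. None was at least 2-fold higher on these days, where 3.80% and 1.12% of all genes were. Over the members past the filter the median log2 fold change was -0.72 at day 0 (8 members), -2.25 at day 3 (7 members) and -2.27 at day 9 (7 members), and over all genes it was 0.054, 0.081 and 0.083. Since the members were picked with these differences in view, nothing is read from these counts about the family.

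Other transcripts of the culture moved alongside. The summed level of 7 preadipocyte markers (Pdgfra, Pdgfrb, Cd34, Dlk1, Ly6a, Thy1 and Dpp4) was 3.95-fold, 3.67-fold and 4.34-fold lower in the FGF8 library on days 0, 3 and 9. Of the 7 markers, 5, 6 and 7 were at least 2-fold lower, counted without the filter on the pair mean. Dpp4 at day 9 was counted from 0 against 7 counts, under that filter. At day 0 Pdgfra (9680 against 68261 normalized counts) and Ly6a (1516 against 28641) made up most of the gap. Cd34 (10476 against 15084) lay within 2-fold there and Thy1 (4427 against 2773) was higher after FGF8. The sum of 7 brown adipocyte markers was 1.96-fold higher at day 3 and 1.16-fold higher at day 9. Fabp4 (334151 against 162482 normalized counts) made up most of the sum at day 3. It was 1 of 3 markers at least 2-fold higher that day, with Ucp1 (4287 against 319.5) and Cidea (415.5 against 33.1). At day 9 none of the 7 was past 2-fold. At day 0 the sum was 1794 against 589.0 normalized counts. Ucp1, the uncoupling protein of brown fat, made up 1327.6 of the 1794 (0 in untreated cells), while Pparg (162.6 against 245.3) and Cebpa (121.6 against 177.7) were lower after FGF8 at day 0. The 5 endothelial markers summed to 71.7 normalized counts after FGF8 against 1630.4 in untreated cells at day 0, where Kdr had 6 against 877 counts, and to at most 212.5 later, with Pecam1 and Cdh5 at no more than 17 counts in any library. The 7 macrophage and 5 neutrophil markers summed to between 61.5 and 156.2 and between 2.44 and 13.3 normalized counts, with S100a9 at 0 in every library. At day 0 the macrophage markers Csf1r (4 against 31 counts) and Lyz2 (1 against 22) were lower after FGF8. Cd68 had 28 against 27 counts there, and Mrc1 was higher at 13 against 5. The part of these markers in the differences of the members was not tested, and in bulk libraries fewer cells of a type and less RNA per cell cannot be told apart.

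To compare enzymes with inhibitors, the levels per kb were summed over the 7 MMP and over the 3 TIMP members. In untreated cells the MMP sum was 8389, 16392 and 8468 on days 0, 3 and 9, with a TIMP sum of 11217, 6417 and 4786. In FGF8-pretreated cells the MMP sum was 5082, 4205 and 1856 and the TIMP sum 8102, 1277 and 659.7. The MMP to TIMP transcript ratio was thus 0.748, 2.55 and 1.77 in untreated cells and 0.627, 3.29 and 2.81 in FGF8-pretreated cells. It was lower after FGF8 at day 0 and higher at days 3 and 9, although both sums were lower after FGF8 on every day. Leaving out Mmp2 and Timp2, the most abundant of each kind on average, moved the untreated ratio to 1.21 at day 0 and 1.05 at day 9. These are ratios of transcripts with no replicate, and they do not measure enzyme activity.

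The make-up of both sums also differed. Per kb of all annotated exons, Mmp2 held the largest share of the MMP sum in every library, between 39.8% (FGF8, day 0) and 65.8% (untreated, day 3). Per kb of the longest transcript, Mmp14 stood above Mmp2 at day 0, at 4890.2 against 4317 in untreated and 3485 against 2219 in FGF8-treated cells, and below it at days 3 and 9. Mmp3 held 15.1% of it in untreated cells at day 9 and 0.827% in FGF8-pretreated cells. Among the inhibitors, Timp2 made up 67.1%, 60.0% and 32.7% of the TIMP sum in untreated cells on days 0, 3 and 9, and Timp1 15.7%, 37.4% and 63.9%. In FGF8-treated cells at day 0 the sum was split more evenly, with Timp3 at 39.4%, Timp1 at 30.4% and Timp2 at 30.3%, and at day 9 Timp2 held 48.0% and Timp1 45.3%.

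**Figure D3:**
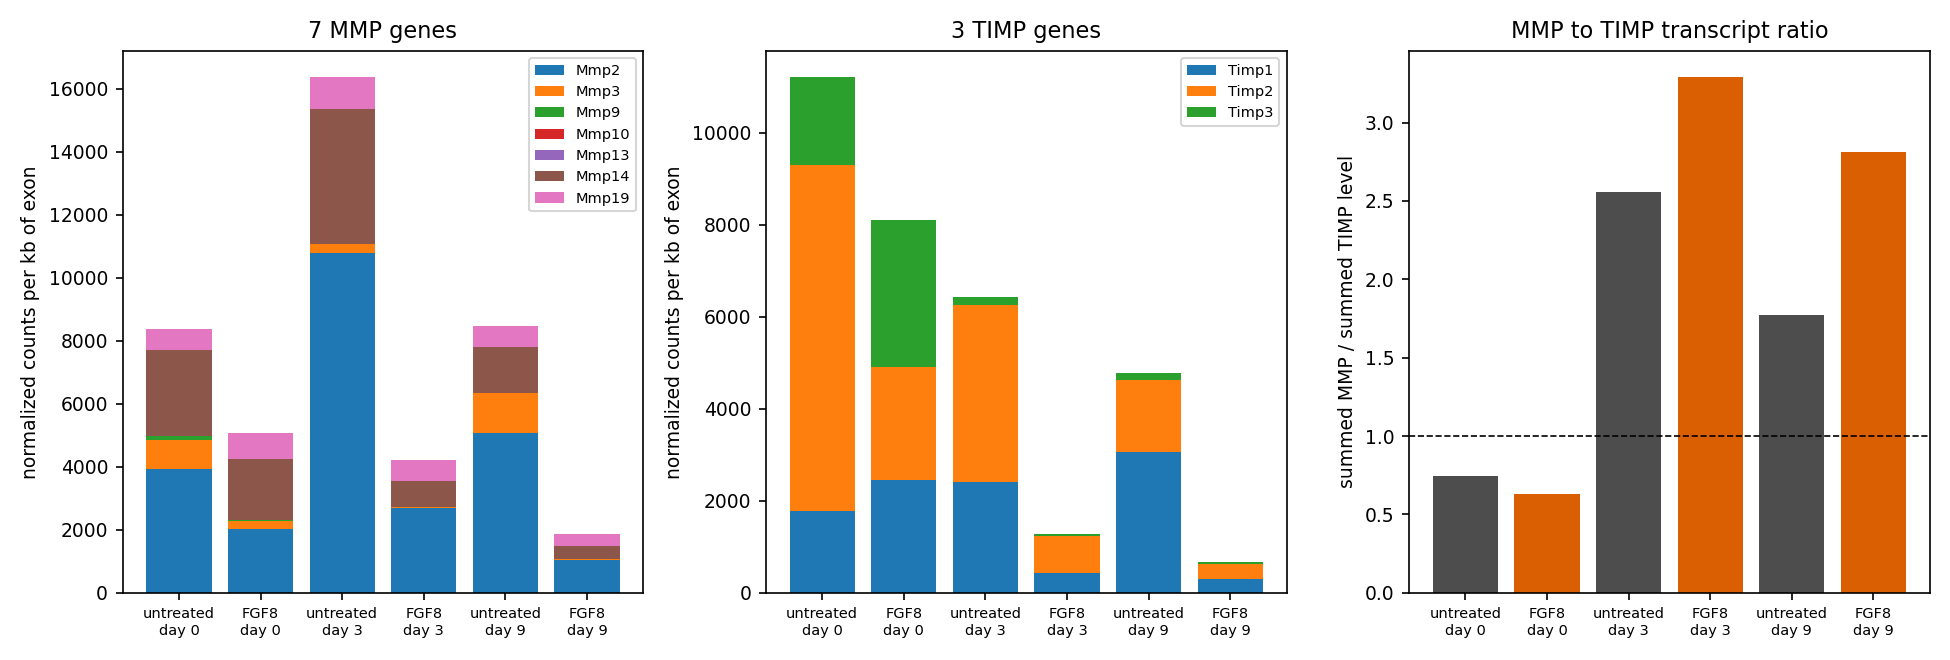
Stacked normalized counts per kb of exon for the 7 MMP genes (left) and the 3 TIMP genes (middle), and the ratio of the 2 sums (right, dashed line at 1), for each of the 6 libraries. The untreated library of day 3 has the tallest MMP bar (16392) and the untreated library of day 0 the tallest TIMP bar (11217), and the ratio exceeds 1 at days 3 and 9 in both treatments.

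The second comparison asked how the members changed when preadipocytes differentiated. It is another contrast than the one the members were chosen by, but it uses the same 6 libraries, the FGF8 library of day 3 among them, and is thus not independent of that choice. Mmp3 was chosen for its level in that library, so its change over the days is given without a test. Day 3 and day 9 were each compared with day 0 in 1 fit across all genes by the quasi-likelihood test of edgeR with treatment as a block. Both libraries of each day stand in for replicates here, so that a response that differs between them counts as error, and 2 residual degrees of freedom remain. Mmp10 and Mmp13 had too few counts to be tested. At day 3, 3 of the 7 other members were lower than at day 0 (Mmp9, Timp2 and Timp3) and none was higher, where 19.8% of 14569 genes were called lower and 26.2% higher. At day 9, 4 were lower (Mmp9, Mmp14, Timp2 and Timp3) and none higher, against 24.8% and 29.2% of all genes.

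Timp3 fell furthest at day 3, by 5.08 on the log2 scale (standard error 0.88, Benjamini-Hochberg adjusted p = 0.0116 by edgeR, lower in both treatments). Its change at day 9 was -5.06 (0.87, adjusted p = 0.00909 in the same edgeR test). In untreated cells alone Timp3 was 11.5-fold lower at day 3 than at day 0, and in FGF8-pretreated cells 83.0-fold lower. For Mmp3 the log2 change from day 0 to day 3 was -1.73 in untreated and -4.83 in FGF8-pretreated cells, and to day 9 it was 0.46 and -4.03. Mmp9 fell by 3.12 at day 3 (adjusted p = 0.0168, edgeR) and by 5.56 at day 9 (adjusted p = 0.00470), and was 56.6-fold lower at day 9 than at day 0 in untreated cells. At day 3 Timp2 fell by 1.23 on the log2 scale (adjusted p = 0.0175, edgeR), and at day 9 it fell by 2.58 (adjusted p = 0.00300). Both Mmp9 and Timp2 were lower than at day 0 in both treatments on both days.

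Mmp14 differed from day 0 at day 9 alone, with a log2 change of -1.60 (standard error 0.48, adjusted p = 0.0425 by edgeR). This call was lost without the untreated library of day 9 (adjusted p = 0.128), without the FGF8 library of day 0 (0.0751) or of day 9 (0.222). For Timp2 the day 3 call was lost without either library of day 3 (adjusted p = 0.0665 without the untreated and 0.137 without the FGF8 library), and for Mmp9 without the untreated one (0.0902). Timp3 lost its call at day 3 without the FGF8 library of day 3 (adjusted p = 0.0808) and at day 9 without the FGF8 library of day 9 (0.0607), each with edgeR and 1 residual degree of freedom. Without the treatment block the calls of Mmp9 at day 3 (adjusted p = 0.0829, edgeR), Timp2 at days 3 and 9 (0.494 and 0.140) and Mmp14 at day 9 (0.297) were lost. With all 6 libraries, Mmp2, Mmp19 and Timp1 did not pass the test at either day. That changed in fits without a library of day 0. In those fits day 0 rests on 1 library, and the fitted changes are given below.

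Over all alternatives, edgeR and DESeq2 together, the adjusted p of Timp3 ranged from 2.08e-14 to 0.0808 at day 3 and from 1.86e-14 to 0.0607 at day 9. That of Mmp9 ranged from 9.75e-05 to 0.0902 and from 5.09e-10 to 0.0402, that of Timp2 from 2.74e-05 to 0.494 and from 2.66e-19 to 0.140, and that of Mmp14 at day 9 from 0.000111 to 0.297. Mmp13, left out of the main test, passed at day 9 in edgeR without the low-count filter (adjusted p = 0.0415) and in DESeq2 (0.0160). Those calls rest on 4 and 19 counts at day 0 against 0 counts in both libraries of day 9. For Timp1 the values over days 0 to 9 went up in untreated and down in FGF8-pretreated cells, and its change from day 0 to day 9 was -1.34 (standard error 1.00, adjusted p = 0.302, edgeR). With 1 library of day 0 left out, the other one stands alone for that day, is assumed to vary like the other libraries, and leaves 1 residual degree of freedom. Without the untreated library of day 0 the contrast starts from the FGF8 library of that day. It still draws on the later untreated libraries through the treatment block, so it is not the change of the FGF8-pretreated cells alone. At day 3 the fitted log2 change was -0.997 for Mmp14 and -2.651 for Timp1, against -1.229 and -2.508 between the FGF8 libraries alone. At day 9 it was -0.832 for Mmp2, -1.101 for Mmp19 and -2.755 for Timp1, against -0.944, -1.207 and -3.037. Without the FGF8 library of day 0 the contrast starts from the untreated library of that day and likewise draws on the later FGF8 libraries. The fitted log2 change at day 3 was then 1.586 for Mmp2 and 0.754 for Mmp19, against 1.453 and 0.627 between the untreated libraries alone.

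The genes whose 6 log2 levels were most like those of Mmp3, out of 11380 genes averaging 100 normalized counts or more, were Cpxm1 (Pearson r = 0.995), Il16 (0.985), Egr1 (0.980), Setbp1 (0.975) and Enpp3 (0.975). The 6 points share their libraries and follow 2 treatments and 3 days, so this is a description of likeness. Cpxm1, a secreted member of the carboxypeptidase family, had 1359, 871.8 and 1754 normalized counts in untreated cells and 737.4, 189.5 and 188.6 after FGF8. Egr1, an immediate early transcription factor, had 1623, 1109 and 1398 in untreated cells and 1174, 248.5 and 276.4 after FGF8. The range of Mmp3 was wider than that of any of these 5 genes.

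Around the MMPs and TIMPs, 83 other genes of extracellular proteolysis were followed in 7 lists. At day 0, 62 of them passed the filter, of which 22 were 2-fold or more lower after FGF8 and 6 higher by as much. At day 3 the numbers were 29 lower and 2 higher of 58, and at day 9 27 lower and none higher of 58. Over all genes past the filter, 10.8%, 12.1% and 8.74% were lower on the 3 days and 7.27%, 3.80% and 1.12% higher, and the counts of each list below stand beside these same shares. The median log2 fold change was -0.32, -1.02 and -0.95. These lists were written with earlier results of the series known.

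Of 16 other MMP genes, 7 passed the filter at day 0 and 6 at days 3 and 9. Of those, 5 were past 2-fold on the lower side at day 0 (Mmp15, Mmp16, Mmp17, Mmp23 and Mmp27; 10.8% of all genes were), 4 at day 3 (12.1%) and 2 at day 9 (8.74%). At day 0, 1 was higher, Mmp11, a stromelysin at 3089 normalized counts after FGF8 against 1113 without. At the later days Mmp11 was below the untreated level, at 131.3 after FGF8 against 675.8 without at day 3 (5.15-fold lower) and 591.8 against 822.7 at day 9 (1.39-fold lower). Mmp23 had log2 fold changes of -1.86, -1.60 and -1.19 on the 3 days, while Mmp15 was lower at day 0 (-1.74, 18 counts after FGF8) and had values of 0.097 and -0.25 later.

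Among 6 other inhibitors, Reck, a membrane-anchored inhibitor of MMP9, MMP2 and MMP14, stood at -0.15 (log2 fold change, 95% interval -0.30 to 0.0025) at day 0 and was at least 2-fold lower at days 3 and 9 (-1.60 and -1.66). Timp4, the TIMP found in adipocytes and heart, had 2 and 0 counts at day 0. It was higher after FGF8 at day 3, at 139.0 against 66.2 normalized counts (log2 fold change 1.06, 0.62 to 1.54), and had 23.6 against 9.94 at day 9. Timp4 was thus the one TIMP gene above the untreated level at day 3. Tfpi2 had log2 fold changes of 0.66, -0.56 and -1.37.

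Of 11 genes for activation, docking and clearance of MMPs, 3, 5 and 7 were 2-fold or more lower on days 0, 3 and 9, against 10.8%, 12.1% and 8.74% of all genes, and 1 (Cldn1) was higher at day 3. All 11 passed the filter at days 0 and 9 and 10 at day 3. For Lrp1, the endocytic receptor that clears MMP and TIMP complexes, the log2 fold changes over the days were -0.067, -1.80 and -1.26. Thbs2, a matricellular protein that binds MMP2 for uptake by LRP1, had 80007 normalized counts without and 19518 with FGF8 at day 0 and was lower on all 3 days (-2.04, -2.31 and -1.56), as was Thbs1 (-2.02, -2.12 and -1.65).

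The ADAMTS proteases, which cleave aggrecan-type proteoglycans or process procollagens, had 15, 12 and 12 of 19 listed genes past the filter on the 3 days. Of these, 8 were past 2-fold on the lower side at day 0 (and 1, Adamts8, on the higher), 6 at day 3 and 7 at day 9, where 10.8%, 12.1% and 8.74% of all genes were lower. Adamts1 had 23437 against 1283 normalized counts at day 0 (log2 fold change -4.19) and values of -1.62 and -0.77 later. The aggrecanase gene Adamts5 (-3.01, -2.03 and -2.54) and the procollagen N-proteinase gene Adamts2 (-2.35, -1.86 and -2.11) were lower on all 3 days. Of 11 ADAM genes, 10 of which passed the filter on each day, 3 were lower and 2 higher at day 0, 1 lower at day 3 and 2 lower at day 9. Adam12 was at -2.55 at day 0 and lay within the untreated level at day 3 (-0.023, -0.058 to 0.013), Adam23 was at -2.42 and then within 2-fold, and Adam19 went from 1.33 at day 0 to -1.07 and -1.24.

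In the plasminogen system, whose protease plasmin activates several pro-MMPs, 7 of 9 listed genes passed the filter on each day. Of these 7, 2 were lower by 2-fold or more at day 0, 6 at day 3 and 4 at day 9, against 10.8%, 12.1% and 8.74% of all genes. Plat, tissue plasminogen activator, had log2 fold changes of -1.26, -2.18 and -3.02. Serpine2, a serine protease inhibitor, was 3.27-fold, 2.29-fold and 2.01-fold lower. Of 11 cathepsin genes, the lysosomal proteases, 10 passed the filter on each day, of which 1 was lower and 2 were higher at day 0, 6 were lower at day 3 and 3 at day 9. Ctsl was 124832 against 32090 normalized counts at day 0 (1.96) and lower later (-1.71 and -1.12), while Ctsa (-0.63, -1.51 and -0.17) and Ctsz (-0.095, -1.32 and -0.11) were at least 2-fold lower at day 3 only.

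**Figure D4:**
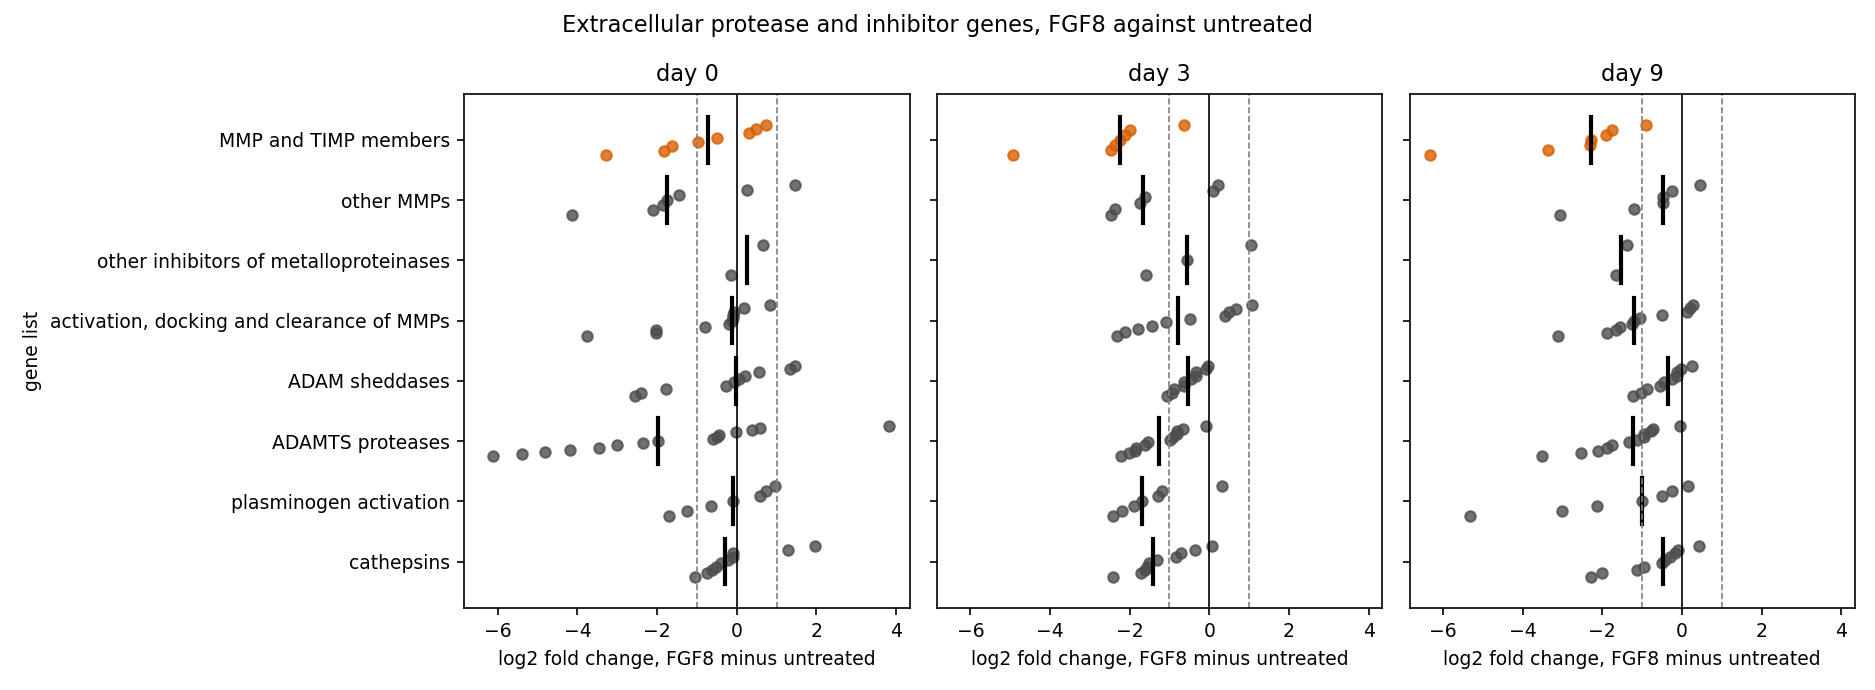
Log2 fold change of FGF8 against untreated at days 0, 3 and 9 for the members (orange) and the 7 lists of other genes (grey), 1 point per gene whose pair mean reached 20 normalized counts, with black bars for the median of each list and dashed lines for 2-fold. The median of the members lies at -0.72, -2.25 and -2.27, and points right of the 2-fold line are found mainly at day 0.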

How the data were processed

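The authors used TrimGalore to trim reads for quality, HISAT2 for alignment to GRCm39 and featureCounts for counting, and the deposited values are raw counts per gene, one file per library. Versions, annotation, strand setting and treatment of reads with several matches are not given in the sources used here. Size factors came from DESeq2 1.42.0 over the 6 libraries. Log2 fold changes between 2 libraries, and the 2-fold calls of genes, were taken on the log2(normalized count + 1) scale. Values written as N-fold are plain ratios of normalized counts without the added 1, so both measures differ at low counts. For Mmp9 at day 9 the ratio was 9.60-fold lower and the log2 value -2.28. The 95% interval of the ratio of both counts (Clopper-Pearson), and the floor of 3 counts, reflect counting error alone. A 2-fold call needed a pair mean of 20 normalized counts or more. Days were compared with edgeR 4.0.16 (TMM, filterByExpr, treatment as a block, adjusted p-value under 0.05). A run on simulated data held no treatment effect, so it cannot show how the test behaves where the treatments differ over the days. Exon lengths, coordinates and upstream sequences come from GENCODE M39 and GRCm39, which hold 23897 (91.0%) of the 26264 symbols. The 10 members, the gene lists and the rule for named genes (members, up to 3 abundant genes past 2-fold per list, and 5 genes most like Mmp3) were set with earlier results of these data known. The values of 1 gene under the rule are not reported here. The growth protocol in the labels describes white preadipocytes, whereas titles and design text describe immortalized brown cells. Alternatives were other normalizations, pseudocounts, filters, folds and lengths, DESeq2, no block and leaving out each library. Scripts ran in Python 3.11.15 (pandas 2.3.3, scipy 1.17.1) and R 4.3.3.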

Additional observations from a re-analysis of the deposited data

Results flagged for a closer look

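For 3 members the FGF8 and the untreated library changed places between day 0 and the later days, with no interval reaching 0. On days 0, 3 and 9 the log2 fold changes of Mmp19 were 0.31, -0.64 and -0.89. For Timp1 the values were 0.48, -2.47 and -3.35. For Timp3 they were 0.73, -2.12 and -1.90. The difference between days was not tested, as each condition is 1 library. The direction was the same under TMM, total counts and size factors within the pair.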

How the results depend on the processing

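The count of members at least 2-fold lower at day 0 went from 3 to 1 with a 4-fold rule, and that of higher members from 0 to 1 without the filter (Mmp13) and with a 1.5-fold rule (Timp3). At days 3 and 9 the counts stayed within 1.5 times of 6 under every normalization, pseudocount, filter and fold tried. No member past the filter changed direction under another normalization. Total counts moved the median of all genes at day 3 by -0.11 on the log2 scale. The MMP to TIMP ratio moved over 1.5 times only without Mmp2 and Timp2, to 1.21 in untreated cells at day 0 and 1.05 at day 9. Without the treatment block, 4436 genes were called at day 3 in place of 6707. Leaving out each library gave between 1214 and 8454 genes at day 3 and between 2703 and 9170 at day 9, where 7872 were called with all 6. The lowest counts came without a library of the day in question (1214 without FGF8 and 2919 without untreated day 3, 2703 without FGF8 and 2869 without untreated day 9), with 1 residual degree of freedom. No paired analysis was possible because the labels give no replicate numbers and each condition is 1 library. Depth limits Mmp10 and Mmp13 on all days and Mmp9 at days 3 and 9.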
